A study of Mus musculus with 10 samples.

Results

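A pair of changes to the same reprogramming mix was compared by chromatin accessibility: a short hairpin RNA against Brg1 added to Sox2, Klf4 and Oct4 (SKO+shBrg1), and the Oct4 mutant L80A put in place of Oct4 in that mix (SKO-L80A). The comparison asks whether the hairpin and the Oct4 mutation leave the same chromatin. It uses 2 of the 10 samples of the series and 4 of the 20 columns of a deposited table, which gives an ATAC-seq signal for 21965 genes. All cells were mouse embryonic fibroblasts (MEFs) of strain ICR from E13.5 embryos that carry GFP under a transgenic Oct4 promoter, infected with pMXs retroviruses in mESC medium, and about 50000 cells went into each library. SKO+shBrg1 cells received Sox2, Klf4, Oct4 and the hairpin, and SKO-L80A cells received Sox2, Klf4 and Oct4 L80A. The conditions set beside them were SKO (Sox2, Klf4 and Oct4), a Flag control virus, the L80A mix in medium holding 50 µg/ml of vitamin C (SKO-L80A+Vc), and the L80A mix with Gadd45a added (SKO-L80A+Ga). Not given in the sources used here are the time after infection, the sequence and vector of the hairpin, and the amount of Brg1 that remained.

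Brg1, encoded by Smarca4, is an ATPase of the SWI/SNF-type (BAF) complexes, which slide and evict nucleosomes. Oct4, encoded by Pou5f1, binds DNA through paired domains that are joined by a linker, and L80A changes a residue of that linker, a surface described as recruiting chromatin proteins, Brg1 among them. In reprogramming, Sox2, Klf4 and Oct4 lead fibroblasts to close mesenchymal genes and to open epithelial and pluripotency genes. ATAC-seq reads such opening through a transposase that cuts accessible DNA.

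The labels give 1 sample per condition, with 2 columns of signal whose relation is not stated. No difference below therefore carries a replicate error, and none was tested. Both columns are given for each main gene instead. Differences are log2 values of SKO+shBrg1 minus SKO-L80A, taken within column 1 and within column 2 with a pseudocount of 0.138. From each the median of all genes was subtracted (0.35 for column 1, -0.15 for column 2), and the mean of both results is called the relative difference. A gene was called higher or lower at a relative difference of at least 2-fold, provided that its mean signal reached 6.92, the median of the whole table, in either condition. In this comparison 12818 genes reached that minimum and 9147 did not.

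The chromatin of both conditions was nearly the same by this measure. Past the 2-fold rule lay 1 gene, Pou5f1, which encodes the exchanged Oct4 and was lower with the hairpin (0.0078% of the 12818 genes). In the other direction 0 genes passed (0%). Of all genes at the minimum, 12675, or 98.9%, lay within 1.25-fold of the all-gene median. The differences had a standard deviation across genes of 0.15 in column 1 and 0.16 in column 2. With at least 1.5-fold asked of each column, Nat3, an arylamine N-acetyltransferase, joined Pou5f1 among the lower genes (2 genes, 0.0156%) and again 0 genes were higher (0%). Each condition was about as close to SKO. Relative to SKO, 99.0% of genes at the minimum lay within 1.25-fold in SKO+shBrg1 and 98.8% in SKO-L80A. Past 2-fold, 1 of 12811 genes was higher in SKO+shBrg1 than in SKO, and 2 of 12635 were higher in SKO-L80A, with 0 lower in each. The closeness of the compared conditions was therefore not particular to this pair.

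**Figure D1:**
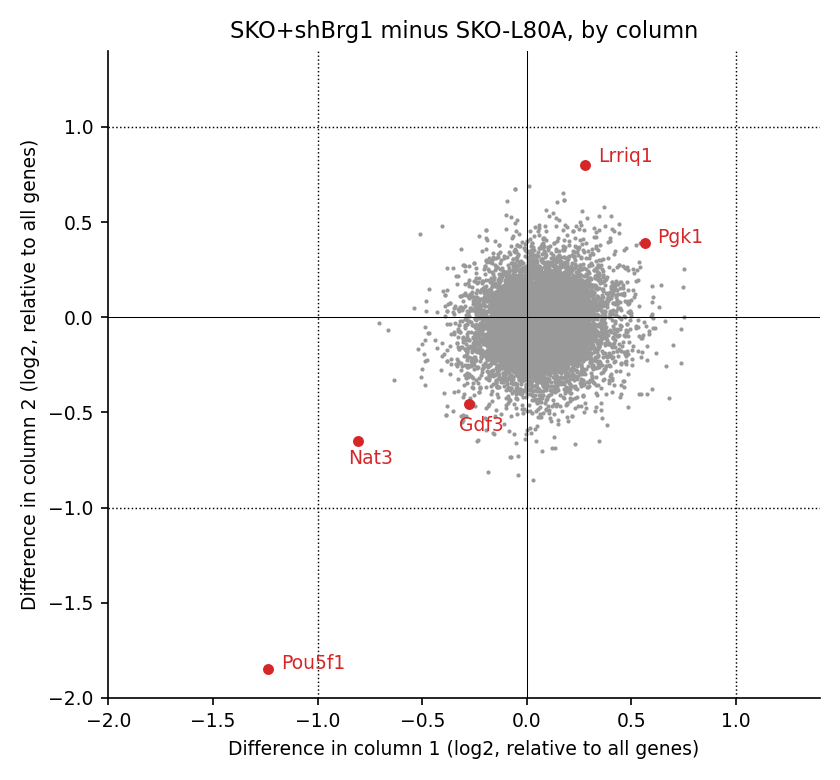
Each point is 1 of 12818 genes at the minimum signal, with its log2 difference, SKO+shBrg1 minus SKO-L80A relative to all genes, in column 1 (x axis) and column 2 (y axis), and dotted lines mark 2-fold. Pou5f1 at -1.24 and -1.85 lies beyond both lower lines, Nat3 at -0.81 and -0.65 lies outside the cloud, and Lrriq1, Pgk1 and Gdf3 lie at its edge.

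Pou5f1 (ENSMUSG00000024406, chromosome 17, 35506032 to 35510777, GRCm38.p6) had a signal of 8.27 (column 1) and 6.79 (column 2) with the hairpin, and of 15.4 and 27.5 in SKO-L80A. Both values of the hairpin condition were below both values of the mutant. SKO lay between them at 10.2 and 9.35, and Flag was far below at 0.812 and 1.12. The relative difference of Pou5f1 was -1.54, or 2.91-fold, with -1.24 in column 1 and -1.85 in column 2. Relative to SKO, Pou5f1 stood at -0.47 in SKO+shBrg1 and at 1.06 in SKO-L80A. It was also higher in the other L80A libraries than with the hairpin, with 8.59 and 10.4 in SKO-L80A+Vc and 10.98 and 14.1 in SKO-L80A+Ga. The neighbours did not share this difference. Tcf19, a transcription factor gene that lies 1953 bases away, had a relative difference of 0.12. Cchcr1, the gene after it, had nearly the same signal as Tcf19 in these columns and also 0.12. The library with the Oct4 L80A virus alone had Pou5f1 values of 18.98 and 49.6. The library labelled Oct4 had Pou5f1 values of 30.8 and 24.2. Its Sox2 signal of 62.9 and 55.2, against 2.73 and 5.12 in Flag, goes against a label of Oct4 alone. That library is therefore not used further here. Reads from the viral Oct4 insert and reads from the gene of the cells cannot be told apart in this table.

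The promoter of Pou5f1 is shown because this gene alone passed the rule and because all cells carry a reporter under an Oct4 promoter. That of Pgk1 is shown because Pgk1 had more signal with the hairpin than in each other SKO-type condition, with the limit on its source given beside its values. Both are RefSeq sequences of GRCm38.p6 from 250 bases before to 50 bases after the start, on the plus strand, with letters in capitals where a Klf/Sp-type motif was found (GGGNGGGG on either strand):
Pou5f1 (chr17:35505782-35506081): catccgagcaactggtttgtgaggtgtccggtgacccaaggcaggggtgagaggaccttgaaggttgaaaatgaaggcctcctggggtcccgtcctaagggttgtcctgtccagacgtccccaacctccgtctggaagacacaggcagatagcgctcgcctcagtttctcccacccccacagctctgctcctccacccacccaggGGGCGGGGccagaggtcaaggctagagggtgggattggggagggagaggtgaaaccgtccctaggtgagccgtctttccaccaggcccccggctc
Pgk1 (chrX:106186850-106187149): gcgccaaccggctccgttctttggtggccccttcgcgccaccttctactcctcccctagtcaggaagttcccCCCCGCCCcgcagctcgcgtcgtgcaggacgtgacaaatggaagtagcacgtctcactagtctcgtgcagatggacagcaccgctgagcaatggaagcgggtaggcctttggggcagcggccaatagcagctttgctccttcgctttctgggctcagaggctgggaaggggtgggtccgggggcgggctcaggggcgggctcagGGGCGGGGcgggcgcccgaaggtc

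The Pou5f1 promoter shown held 1 match to this motif and the Pgk1 promoter 2. RefSeq gives another Pou5f1 promoter inside the gene (chr17:35508557-35508856), not printed, which held 0. None of these held an AP-1 motif (TGANTCA), an octamer (ATGCAAAT) or a TEAD motif (GGAATG), all searched on both strands. Among 9964 genes at the minimum signal with a promoter in the RefSeq table, 54.7% had the Klf/Sp motif, 5.70% the AP-1 motif, 1.52% the octamer and 14.3% the TEAD motif. Nat3 was among the genes without an entry.

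The genes of the viral factors that both mixes share, Sox2 and Klf4, differed less. Sox2 (ENSMUSG00000074637), an HMG-box factor, gave values of 61.5 and 43.6 with the hairpin, against 38.5 and 51.8 in SKO-L80A. Its columns went in opposite directions, at 0.33 and -0.10. Klf4 (ENSMUSG00000003032), a zinc finger factor, had 74.8 and 58.2 against 62.6 and 83.5, or -0.09 and -0.37. The value ranges of both conditions overlapped for Sox2 and for Klf4, unlike those of Pou5f1.

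Nat3 (chromosome 8, 67523854 to 67548627) was a gene that SKO opened: its signal was 0.667 and 0.975 in Flag, against 7.91 and 6.38 in SKO. With the hairpin it was 7.97 and 6.08, close to SKO, and with L80A 10.99 and 10.7, so the values did not overlap. The relative difference was -0.73, or 1.66-fold. The neighbouring acetyltransferase gene Nat2, 21210 bases away, differed the other way in both columns, at 0.41 and 0.12. Nat3 was also lower with the hairpin than in the other L80A libraries, at -0.77 against SKO-L80A+Vc and -0.52 against SKO-L80A+Ga.

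Smarca4 (ENSMUSG00000032187), the target of the hairpin, read 24.4 and 16.6 with the hairpin, against 17.4 and 19.2 with L80A, with a relative difference of 0.04. Accessibility over this gene does not measure its transcript, so these values do not check the knockdown. The gene of the related ATPase Smarca2 stood at -0.13. Of 31 Brg1-type remodeller subunits in the table, 29 reached the minimum signal, 0 were called in either direction, and these 29 ranged from -0.16 (Smarcd3) to 0.13 (Bcl7b). Over all genes 1 of 12818 was called (0.0078%), so 0 calls in this or any list below says little about its members. The list's median was 0.04, against -0.01 for all genes of the table.

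Pgk1 (chromosome X, 106187100 to 106203699), the glycolytic phosphoglycerate kinase, was noticed after its values were seen. It had 42.0 and 31.9 with the hairpin, above the 22.2 and 26.9 of SKO-L80A and the 24.5 and 25.2 of SKO. It had 17.2 and 15.3 in SKO-L80A+Vc and 18.9 and 21.0 in SKO-L80A+Ga. The relative difference was 0.48, or 1.39-fold, under the 2-fold rule, and it was 0.46 against SKO while SKO-L80A stood at -0.03 against SKO. Neighbouring genes did not share it: Taf9b, 3175 bases away, had -0.13 and Atp7a 0.01. The Pgk1 promoter is a common part of expression vectors and the vector of the hairpin is not known here, so reads from a vector and reads from the gene of the cells cannot be told apart in these values.

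The spread between the columns of a condition was set beside these differences, and it includes whatever columns of the same number share. For column 2 minus column 1, the all-gene median was again subtracted, and this difference had a standard deviation across the 12818 genes of 0.24 within SKO+shBrg1 and of 0.27 within SKO-L80A, both larger than the 0.15 and 0.16 between conditions in a single column. Between columns, 14 genes were at least 2-fold higher in column 2 of SKO+shBrg1 (0.109%) and 4 lower (0.0312%). In SKO-L80A, 33 were higher (0.257%) and 2 lower (0.0156%). The column differences of both conditions went together, with a Pearson r of 0.69 across genes. These points share genes and their signal levels but no library. When the columns were crossed, the standard deviation between conditions became 0.25 and 0.27. No source used here says how the 2 columns of a condition relate to each other, and columns of the same number were more alike across these 2 conditions than columns of the same condition.

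**Figure D2:**
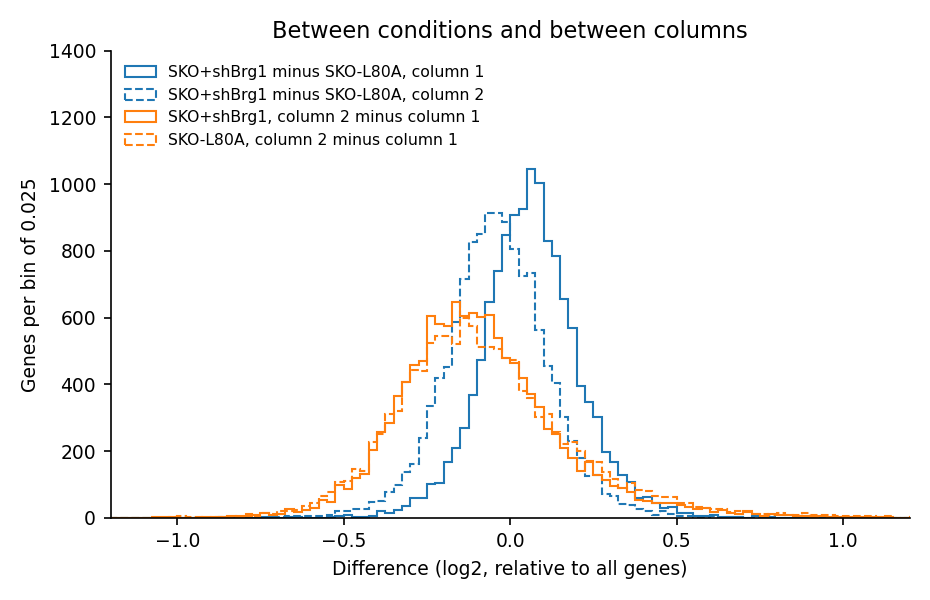
Histograms over 12818 genes of the log2 difference relative to all genes, between conditions in column 1 and column 2 (blue) and between the columns of a condition (orange), in bins of 0.025. The blue curves, with standard deviations of 0.15 and 0.16, are narrower than the orange curves at 0.24 and 0.27.

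The columns agreed weakly across genes, Pou5f1 and Nat3 included. Across genes at the minimum signal, the difference in column 1 and that in column 2 had a Pearson r of 0.10 and a Spearman rho of 0.09. At 1.25-fold, a size chosen after the data were seen, 25 genes were higher in both columns (0.195%) and 12 lower in both (0.0936%), while 34 genes passed 1.25-fold in opposite directions: 32 were higher in column 1 and lower in column 2, and 2 the reverse. With crossed columns, 18 were higher and 6 lower in both.

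The genes higher in both columns at 1.25-fold had relative differences from 0.35 to 0.48. Besides Pgk1 they included, as examples chosen after their values were seen, Scx, the tendon factor scleraxis (14.3 and 10.4 with the hairpin against 7.67 and 8.73 in SKO-L80A), and Car9, a carbonic anhydrase (10.3 and 9.26 against 6.09 and 7.07). Krt14, a keratin of basal epithelium, had 8.21 and 7.25 against 5.08 and 5.85. In these 3 genes column 2 of the hairpin condition still exceeded both values of the mutant. Relative to SKO, the 25 genes had a median of 0.18 in SKO+shBrg1 and of -0.21 in SKO-L80A, which is a description only, since the same columns chose them.

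The 12 genes lower in both columns had medians of -0.12 in SKO+shBrg1 and 0.38 in SKO-L80A relative to SKO, again in the columns that chose them. Hdac9 and Atrx were also chosen after their values were seen. Hdac9, a class IIa histone deacetylase, had 8.18 and 6.17 against 9.99 and 8.64. Atrx, a remodeller of heterochromatin, had 9.18 and 6.66 against 9.20 and 9.75, so its column 1 values were almost equal before the all-gene shift was subtracted. Lrrc34 and Lrriq4, neighbours on chromosome 3, had nearly identical values in every column and count as 1 observation. Lrriq1, a leucine-rich repeat gene, had the highest relative difference of the 12818 genes, 0.54, with 6.76 and 7.20 against 4.32 and 4.53, but passed 1.25-fold in column 2 alone.

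Genes that the factors opened were open in both conditions. For this, genes at least 2-fold higher in SKO than in Flag relative to all genes were taken, 274 of 12475 (2.2%). In the other direction 19 genes passed (0.152%). That choice used neither of the compared libraries. In SKO+shBrg1, 232 of the 274 were at least 2-fold above Flag, and in SKO-L80A 238 were, with medians of 1.29 and 1.35 on the log2 scale. Both conditions are set here against the same Flag library that helped choose the genes. Low Flag values therefore enter both the choice and these counts and medians. Between SKO+shBrg1 and SKO-L80A the 274 genes had a median of -0.01, with 0.06 in column 1 and -0.08 in column 2. Of them, 262 lay within 1.25-fold and 272 within 1.5-fold, and the exceptions past 1.5-fold were Pou5f1 and Nat3. By promoter sequence, 14.1% of the 199 of these genes with an entry had an AP-1 motif and 4.02% an octamer, against the 5.70% and 1.52% above. The Klf/Sp motif was in 55.8% and the TEAD motif in 17.6%, against 54.7% and 14.3%.

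Single genes, chosen after their values were seen from those highest in SKO over Flag, were open to a similar extent in both. E330017A01Rik, an uncharacterised gene, had 21.5 and 9.42 with the hairpin and 12.1 and 12.1 with the mutant, against 0.196 and 0.135 in Flag. Crtam, an adhesion molecule of T cells, had 16.8 and 7.35 against 12.7 and 9.37. Cyp3a13, a drug-metabolising cytochrome P450, had 12.5 and 8.17 against 9.27 and 12.1. In each of these 3 genes the mutant's values lay within the range of the hairpin's. Ugt1a6a, a glucuronosyltransferase, had 17.0 and 10.4 against 11.2 and 9.92, with a relative difference of 0.23.

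Calls against Flag also had similar numbers. SKO+shBrg1 had 278 genes higher than Flag (2.17%) and 21 lower (0.164%), and SKO-L80A had 288 higher (2.3%) and 19 lower (0.152%). The same Flag library stands in both comparisons. Of the genes called higher, 232 were shared, or 83.5% of those with the hairpin and 80.6% of those with the mutant. Over all genes at the minimum, the shares called higher were the 2.17% and 2.3% above. The 46 genes called higher with the hairpin but not with the mutant were at 0.76 or more in SKO-L80A against Flag. The 56 called with the mutant but not with the hairpin were at 0.62 or more in SKO+shBrg1.

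Relative to all genes, those more open with Klf4 alone lay slightly lower with the hairpin, though not before the all-gene median was subtracted. The 157 genes at least 2-fold higher in the Klf4 library than in Flag (1.43% of those at the minimum signal there), again chosen without either compared library, had a median relative difference of -0.06, and of 0.04 when the all-gene median was not subtracted. By column the median stood at -0.02 (column 1) and -0.11 (column 2), while all genes at the minimum signal had 0.06 and -0.04. Of the 157, members below the minimum included, 53 had a positive relative difference (33.8%), against 54.1% of all genes at the minimum. Of these same 157, 58 were negative in both columns, or 36.9% where all genes at the minimum had 20.9%. The shares thus differ in whether genes below the minimum count. Neighbours such as Pik3r6 and Mfsd6l, with nearly the same signal in the compared columns, were counted separately here. Of the 157, none was called by the 2-fold rule. The minimum was reached by 143 of them, and 0 of these were higher or lower by 2-fold. At the extremes, Evpl, an envelope protein of epithelial cells, had the highest relative difference of the 157, 0.26, and Dydc2, which was below the minimum, the lowest, -0.49. The 14 genes at least 2-fold higher in the Sox2 library (0.131%) had a median of 0.06, with 0.10 in column 1 and -0.06 in column 2.

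**Figure D3:**
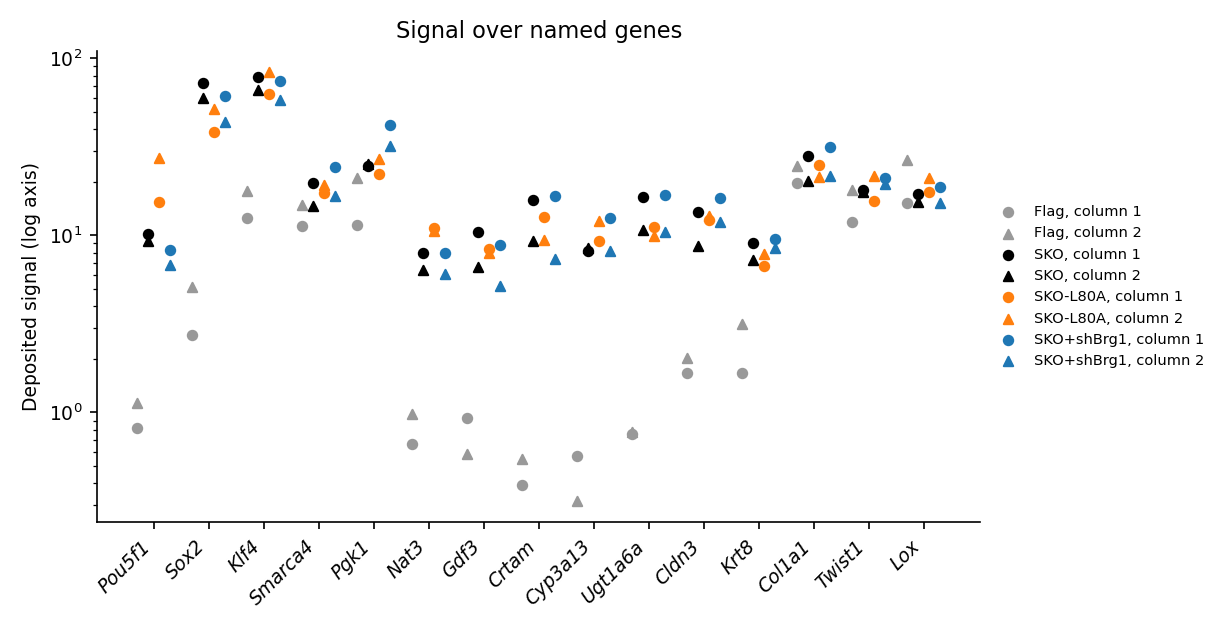
Deposited signal (log axis) over 15 genes in Flag, SKO, SKO-L80A and SKO+shBrg1, with circles for column 1 and triangles for column 2. Pou5f1 separates SKO-L80A (15.4 and 27.5) from SKO+shBrg1 (8.27 and 6.79), while genes such as Crtam and Cyp3a13 are far above Flag and overlap between both conditions.

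Pluripotency genes, which act in the network around Oct4, showed no common difference. Of the 42 on the list, 20 reached the minimum signal, 1 was called lower (Pou5f1) and 0 higher, and the median of all 42 was -0.02. Gdf3, which encodes a secreted ligand of the TGF-beta superfamily, had 8.83 and 5.17 with the hairpin and 8.39 and 7.94 with the mutant. Its values overlapped, and its relative difference was -0.37. Relative to all genes, Gdf3 was also lower with the hairpin than in SKO-L80A+Vc, at -0.37 and -0.40 by column. Against SKO-L80A+Ga it stood at -0.32 and -0.51. Lin28b, an RNA-binding regulator of let-7, stood at the other end, at 0.37, with 10.3 and 10.7 against 5.77 and 9.92. Nanog, a core pluripotency factor, stayed far below the minimum signal in both conditions, at 0.286 and 0.580 against 0.0918 and 0.483. Esrrb, an orphan nuclear receptor, and Sall4, a zinc finger factor, were below it too, at 3.43 and 3.77 against 3.25 and 4.28, and at 3.10 and 2.39 against 2.07 and 2.77.

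Fibroblast identity genes, which report on the starting cell, were open in both. Of 50 on the list, 42 reached the minimum, 0 were called, and these 42 ranged from -0.29 (Lox) to 0.30 (Myl9). Col1a1, the main fibrillar collagen, had 31.7 and 21.5 with the hairpin and 25.02 and 21.4 with the mutant. Twist1, which drives mesenchymal genes, had 21.0 and 19.4 against 15.7 and 21.8. Lox, a collagen cross-linking oxidase, had 18.8 and 15.2 against 17.5 and 21.2, or -0.24 and -0.33. Thy1, a fibroblast surface marker, was below the minimum at 5.52 and 4.35 against 6.79 and 5.44, at -0.64 in column 1 and -0.17 in column 2.

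Epithelial genes, which open as fibroblasts lose mesenchymal character, were close as well. Of 36 on the list 13 reached the minimum, 0 were called, and the 13 ranged from -0.13 (Dsp, desmoplakin) to 0.20 (Krt8, a simple epithelial keratin). Cldn3, a tight junction claudin, had 16.2 and 11.9 against 12.2 and 12.8. Cdh1, the epithelial cadherin, had 3.84 and 2.55 against 2.08 and 2.80, and Epcam, an adhesion molecule, had 3.24 and 4.06 against 1.41 and 3.46. Both were below the minimum, and Epcam stood at 0.78 in column 1 and 0.37 in column 2.

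Chromatin regulators other than the Brg1 complexes gave 0 calls as well. Of 27 other ATP-dependent remodellers, 25 reached the minimum and ranged from -0.37 (Atrx) to 0.22 (Chd4, the NuRD ATPase). Of 36 heterochromatin and DNA methylation genes 34 did, up to 0.30 for Ehmt2, the histone H3 lysine 9 methyltransferase G9a. Its signal was 10.2 and 7.74 with the hairpin and 6.79 and 6.60 with the mutant. Tet1, a methylcytosine dioxygenase, had 21.0 and 20.2 against 16.7 and 19.5, with a relative difference of 0.09. All 30 Polycomb genes reached the minimum, and they lay between -0.15 (Phc2) and 0.20 (Kdm2b).

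Among signalling and cell-state lists, 0 members were called in any, where all genes had 1 call in 12818 (0.0078%). The 20 AP-1 and TEAD pathway genes at the minimum ranged from -0.10 (Fosb) to 0.15 (Tead1). The 34 TGF-beta and BMP genes ranged from -0.20 (Bmp4) to 0.20 (Ski). Of the 26 cell cycle and p53 genes, Mcm2, a subunit of the replicative helicase, had the highest value at 0.40, with 11.9 and 8.41 against 7.46 and 6.69. The 30 housekeeping genes ranged from -0.18 (Rps18) to the 0.48 of Pgk1, a member of that list. Among markers of other cell types, 3 of 20 blood, 5 of 16 endothelial, 5 of 18 muscle, 6 of 16 cartilage and bone, 9 of 22 endoderm and 4 of 19 germline and 2-cell genes reached the minimum. Of the neural genes 16 of 26 reached it, and 13 of 19 trophectoderm genes did. The interferon and stress list had 16 of 24, and 0 members of these lists were called.

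**Figure D4:**
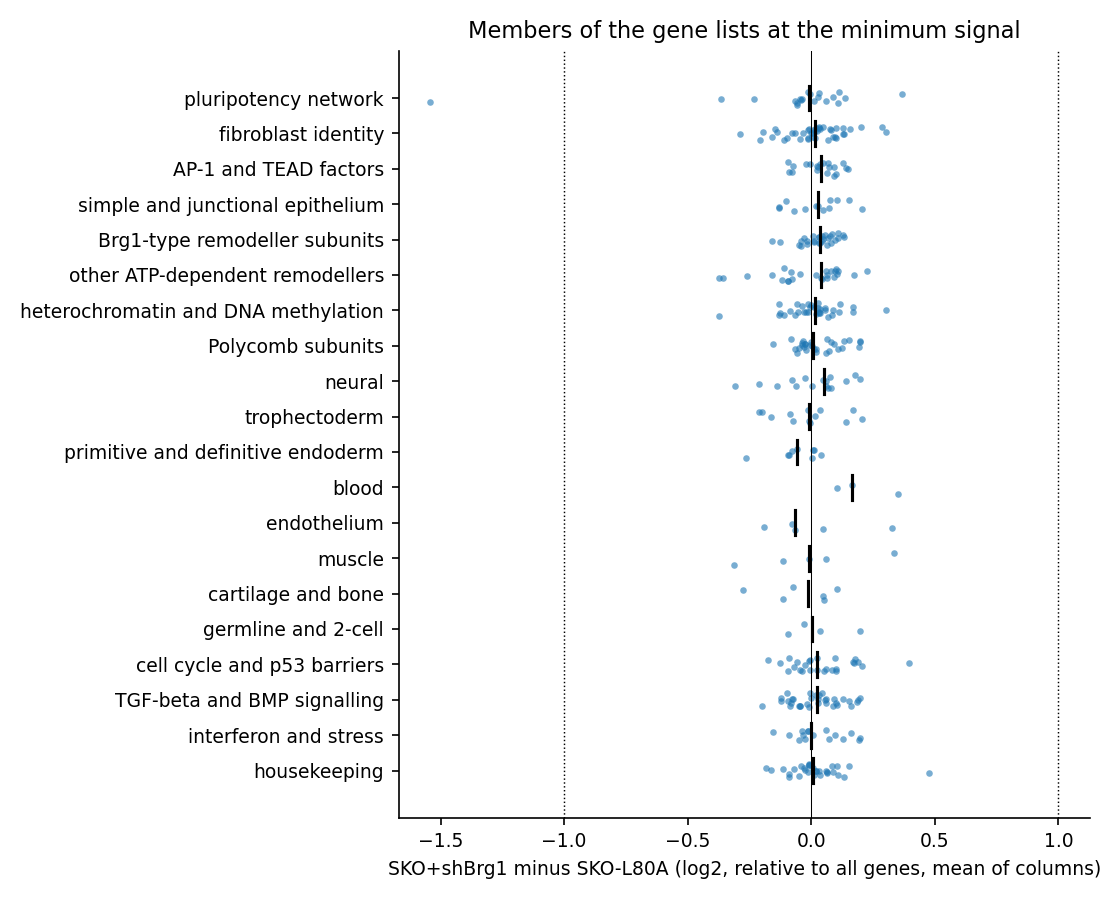
Relative log2 difference, SKO+shBrg1 minus SKO-L80A as the mean of both columns, of each member of 20 gene lists at the minimum signal, with the list median as a bar and dotted lines at 2-fold. Pou5f1 at -1.54 is the single point past a dotted line, and the other members lie between -0.37 and 0.48.

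The differences had no pattern by chromosome or gene length. Chromosome medians of genes at the minimum signal lay between -0.01 (chromosome X) and 0.02 (chromosome 15), and the medians of the 4 quartiles of gene length were all 0.01. Signal level mattered more. Among the 5492 genes in the lowest quartile of mean signal, column 1 had a median of -0.38 and column 2 one of 0.14, and the standard deviation of the relative difference was 0.27, against 0.08 in the highest quartile. Differences among these genes were opposite between the columns and were not read as differences between the conditions.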

How the data were processed

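The authors deposited a signal, called a density, per Ensembl gene and column. Not given in the sources used here are its window, how libraries were scaled to each other and the read depth, so no counting interval was computed. Per the submitters' processing notes the build was mm10, with DESeq2 1.22.2, bedtools 2.25.0, MACS2 2.1.0, deepTools, Picard, Bowtie2 2.2.5, SAMtools 1.3.1, cutadapt 1.13 and Trimmomatic 0.35, without the step each served. Column totals lay between 112440 and 370390. Columns were treated as repeat measurements of 1 sample because the labels give 1 sample per condition. Whether they come from separate cultures or libraries is not stated. The pseudocount of 0.138 is the 10th percentile of values above 0. Computation used Python 3.11.15, pandas 2.3.3, numpy 2.4.6, scipy 1.17.1 and statsmodels 0.14.6, and was tested on simulated data. Of the symbols, 20788 matched RefSeq of GRCm38.p6, whose coordinates are given. The samples, gene lists and named genes were chosen with earlier results of these data known. Named genes were those past the rule (at most 10 per direction, and 3 per list), a fixed group of 29, and others stated as chosen later. Alternatives were pseudocounts 4 times larger and smaller, no minimum signal, no centring, quantile normalisation, lowess (fraction 0.3, 3 iterations), each column alone, other folds and crossed columns.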

Additional observations from a re-analysis of the deposited data

How the results depend on the processing

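With 1 labelled sample per condition, no replicate could be left out. Columns were paired by their number throughout, and crossing them was the alternative. No paired analysis was possible because 1 labelled sample per condition gives no replicate pairs for a block. With either pseudocount, without centring, after quantile normalisation or lowess and in each column alone, 1 gene was lower and 0 were higher by 2-fold, and Pou5f1 lay between -1.85 and -1.24. The mean of the crossed pairs was not run for these counts. Single crossed pairs gave more genes past 2-fold among the 12818, with each column's own median subtracted. Column 1 of SKO+shBrg1 minus column 2 of SKO-L80A had 8 higher and 18 lower. Column 2 of SKO+shBrg1 minus column 1 of SKO-L80A had 34 higher and 7 lower. Without the minimum signal, 2 genes were higher and 22 lower, 24 and 74 were 1.5-fold higher and lower in both columns, and the correlation of the columns turned to -0.18. At 1.5-fold in the mean, 2 genes were lower. Without centring, 1 gene was 1.5-fold higher and 1 lower in both columns. With crossed columns 1 gene was 1.5-fold lower in both and the correlation was -0.63. The counts of 25 and 12 genes at 1.25-fold became 10 and 9 after quantile normalisation, 16 and 21 after lowess, 29 and 2 without centring, and 215 and 413 without the minimum signal; the crossed columns gave 18 and 6. List medians over all members, those below the minimum included, stayed between -0.21 and 0.17 in all alternatives. Medians over members at the minimum went further, as in the blood list, with 3 such members and 0.31 in column 2. The cause of these changes was not tested.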

Other observations

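Some genes differed between the columns of both conditions in the same way. Of the 14 genes at least 2-fold higher in column 2 than in column 1 of SKO+shBrg1 and the 33 in SKO-L80A, 9 were shared, or 64.3% and 27.3% of each list. Gm20594, a predicted gene on chromosome 6, had 5.59 in column 1 and 25.1 in column 2 of SKO+shBrg1, and 5.79 and 36.8 in SKO-L80A. Grk2, a kinase of G protein-coupled receptors, had 7.06 and 11.97 with the hairpin, and 3.96 and 10.4 with L80A. The other shared genes were Rnpepl1, Anks6, Mtss1l, Vps54, Elovl2, Ttc7b and Galnt1. Grk2 was also among the 25 genes higher with the hairpin at 1.25-fold in both columns, with a relative difference of 0.41.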
